A study of Mus musculus with 20 samples.

Results

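The lysophosphatidic acid receptors were examined for binding to iron regulatory protein 1 (IRP1) in 5 mouse tissues. All probe sets that the platform annotation gives to Lpar1, Lpar2, Lpar3, Lpar4 or Lpar6 were taken, 5 of the 18193 genes with a probe set of their own, which made 10 of the 45037 probe sets tested. Lpar1 has 3 of them, Lpar2 has 2, Lpar3 has 1, Lpar4 has 3 and Lpar6 has 1. Lpar1 was selected on its enrichment in the IRP1 reactions, that is, on the difference in signal between IRP1 and control arrays, and the other receptors were taken with it as a comparison. The Lpar1 changes with IRP1 are therefore given as values with intervals and without a test. Lpar5, the remaining receptor of the group, was not analysed here.

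RNA recovered by immunoprecipitation was measured on 20 arrays. Each of the 5 tissues (brain, bone marrow, duodenum, liver and spleen) had 2 IRP1 reactions and 2 control reactions. All RNA came from C57BL6/J mice of both sexes, and the RNA of several animals (6 for bone marrow and for brain, 4 for the duodenum reaction whose label gives a number) was pooled per tissue. The IRP1 reactions combined 50 µg of this RNA with purified recombinant IRP1, which carried a six-histidine tag and was made in E. coli, and with a rabbit polyclonal antibody against IRP1. The control reactions held the same RNA and antibody without the recombinant protein. Duodenum, liver and spleen came from mice given an iron-poor diet (under 10 mg iron per kg) for 21 days from weaning, and bone marrow and brain from mice of 8 to 10 weeks on an iron-normal diet. Diet and age therefore cannot be told apart from tissue. Recovered RNA is bound in a test tube from naked total RNA, so the values describe what recombinant IRP1 can hold and not what the cell's own IRP1 held. Because the RNA was pooled, the p-values reflect how far repeated reactions and arrays of a tissue differ, which may be technical, and not how far animals differ.

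Lysophosphatidic acid is a small signalling lipid that acts through G protein-coupled receptors on the cell surface. Lpar1, Lpar2 and Lpar3 belong to the EDG family, together with the receptors for sphingosine 1-phosphate, whereas Lpar4, Lpar5 and Lpar6 resemble the purine receptors of the P2Y family. Lpar1 is the most widely distributed of them and is known from oligodendrocytes, from the developing cortex and from fibroblasts, where it drives migration and contraction. IRP1 is a cytosolic protein that switches between an enzyme with an iron-sulphur cluster (aconitase) and, when iron is low, a regulator that binds a hairpin in mRNAs, the iron-responsive element (IRE). Binding in a 5' untranslated region blocks translation, and binding in a 3' untranslated region stabilises the mRNA.

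Array medians ran from 5.50 to 5.62 log2 units, and arrays of the same tissue correlated at 0.978 or more across probe sets. The markers of each tissue's own cells were highest in that tissue. Acinar markers of the pancreas averaged 13.88 in the duodenum controls and 10.17 in the spleen controls. On 2 arrays, the second spleen IRP1 reaction and the second spleen control, the hybridization control probe sets lay 1.06 and 1.26 log2 below the median array, and spleen values are given without them as well. Of 6 mRNAs that textbooks name as carrying an IRE, 6 were higher with IRP1 in the mean of the tissues (adjusted p under 0.05, limma), with changes of 0.84 to 2.22 log2. Over all genes 0.912% were called higher in the mean. In single tissues fewer of the 6 were called in most cases: 2 in duodenum, 3 in liver, 1 in spleen, 6 in bone marrow and 3 in brain. There 0.066% (spleen) to 0.148% (bone marrow) of all genes were called higher.

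Lpar1 mRNA was recovered in larger amounts with IRP1 than without it in each of the 5 tissues by its 2 brighter probe sets. Averaged over the tissues, the signal was 7.70-fold higher by probe set 1448606_at (log2 change 2.95, SE 0.13, 95% interval 6.32-fold to 9.38-fold) and 5.80-fold higher by probe set 1417143_at (2.54, SE 0.11, 4.96-fold to 6.79-fold). Among all 45037 probe sets these mean changes had rank 3 and rank 8 from the top. The third probe set, 1426110_a_at, had a smaller mean change (1.10, SE 0.16, 1.69-fold to 2.71-fold, rank 80), which lay mainly in duodenum, spleen and brain.

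By probe set 1448606_at, the duodenum signals were 12.41 and 12.04 log2 units with IRP1 and 9.22 and 9.73 in the controls. In liver they were 8.97 and 9.61 with IRP1 and 6.74 and 6.97 without it. In spleen they were 11.89 and 12.40 against 8.77 and 8.26. In each of these tissues the lower IRP1 array thus lay well above the higher control array. In bone marrow the signals were 9.38 and 9.61 with IRP1 and 6.42 and 6.38 without it, and in brain they were 11.95 and 12.95 against 9.61 and 9.66. The groups did not overlap in any of the 5 tissues, while the share of all probe sets with both IRP1 arrays above both controls was 16.6% in duodenum, 19.2% in liver, 17.6% in spleen, 19% in bone marrow and 16.7% in brain. Since the choice of Lpar1 rests on these arrays, nothing is read from that contrast.

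**Figure D1:**
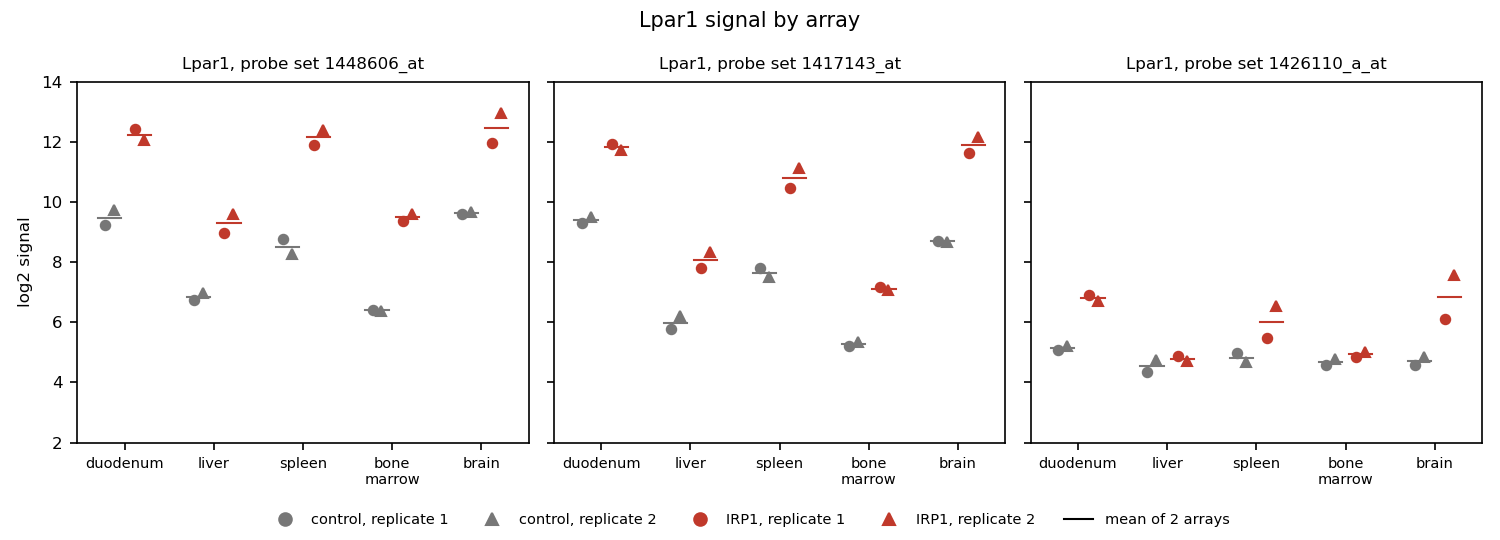
Log2 signal (vertical axis) of the 3 Lpar1 probe sets on each array by tissue (horizontal axis), with control reactions in grey and IRP1 reactions in red; circles are replicate 1, triangles replicate 2 and bars the mean of 2 arrays. By 1448606_at and 1417143_at the IRP1 arrays lie above the controls in each tissue, and by 1426110_a_at the groups overlap in liver.

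The size of the Lpar1 change by 1448606_at ran from 2.43 log2 in liver (SE 0.30, 5.40-fold) to 3.63 in spleen (12.4-fold), which was the largest change of any probe set in that tissue. The other tissues gave 2.75 in duodenum (6.73-fold), 2.82 in brain (7.04-fold) and 3.09 in bone marrow (8.54-fold), with the same SE. The 95% intervals reached from 1.79 to 3.07 in liver and from 2.99 to 4.27 in spleen, a narrow overlap. Such overlap does not show that the changes were equal, and the Lpar1 change is compared between tissues without a test. Replicates of equal number differed in spleen by 3.12 and 4.15 and in brain by 2.34 and 3.29. Without the 2 spleen arrays with low hybridization controls the spleen change was 3.12.

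By probe set 1417143_at the signals with IRP1 and in the controls were 11.91 and 11.73 against 9.31 and 9.51 in duodenum, 7.81 and 8.32 against 5.78 and 6.20 in liver, and 10.45 and 11.14 against 7.79 and 7.51 in spleen. They were 7.17 and 7.07 against 5.21 and 5.34 in bone marrow, and 11.63 and 12.15 against 8.70 and 8.68 in brain. Here too the groups did not overlap in any of the 5 tissues. The changes were 3.20 log2 in brain (SE 0.24, 9.18-fold), 3.15 in spleen (8.86-fold), 2.41 in duodenum (5.33-fold), 2.08 in liver (4.22-fold) and 1.85 in bone marrow (3.59-fold). Bone marrow had the smallest change by this probe set and the second largest by 1448606_at. Its interval was 1.34 to 2.35, against 2.64 to 3.66 in spleen and 2.69 to 3.71 in brain. Whether the Lpar1 change differed between these tissues is not read from the intervals. The bone marrow control signals of 1417143_at lay below the median of their arrays, and setting all values under log2 6 to that floor made the bone marrow change 1.12.

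Probe set 1426110_a_at, whose suffix Affymetrix uses where the probes match several transcripts of a gene, gave a different picture between tissues. Its signals were 6.89 and 6.71 with IRP1 against 5.07 and 5.21 in duodenum, and 6.11 and 7.57 against 4.57 and 4.84 in brain. In spleen they were 5.48 and 6.55 against 4.98 and 4.67. These 3 tissues changed by 1.66, 2.14 and 1.19 log2 (SE 0.36). Single arrays weighed on the last 2 values: the spleen change was 0.66 without its second IRP1 array and 1.72 without its first, and 0.50 without both arrays with low hybridization controls, and the brain change was 1.41 without its second IRP1 array and 2.86 without its first. In liver the IRP1 arrays read 4.87 and 4.71 and the controls 4.33 and 4.73, so the groups overlapped. In bone marrow they read 4.86 and 5.0 against 4.59 and 4.78, and the changes in liver (0.26, interval -0.50 to 1.03) and bone marrow (0.24, interval -0.52 to 1.01) included 0. Its control signals lay between the 23.3 and 44.4 percentiles of their arrays. Log2 differences can be compressed at such dim signals, and whether they were here was not tested. With the floor at log2 6 its mean change was 0.38.

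Over the 20 arrays, 1448606_at and 1417143_at had a Pearson correlation of 0.962 (Spearman 0.929), and their correlation was 0.979 over the 10 control arrays alone. The third probe set correlated with them at 0.853 and 0.865. These arrays share the tissue and the reaction, so the coefficients are a description. The annotation gives the 2 brighter probe sets the same cDNA record and the third another one.

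No relative was detectably enriched with IRP1. Their 7 probe sets changed by -0.38 to 0.26 log2 in single tissues and by -0.08 to 0.11 in the mean of the tissues, and 0 of 7 were called in any tissue or in the mean (limma, adjusted p under 0.05; lowest adjusted p 0.52 in a tissue and 0.449 in the mean). Of the 35 single-tissue changes, 17 were above 0, 16 were below and 2 rounded to 0. At an unadjusted p under 0.05, 1 of the 35 passed and 0 of the 7 mean changes did, where 4.08% (duodenum) to 13.5% (liver) of all probe sets passed in single tissues and 16.4% in the mean. Over all probe sets the share called higher was 0.0799% in duodenum, 0.091% in liver, 0.0688% in spleen, 0.127% in bone marrow, 0.0866% in brain and 0.773% in the mean. The shares called lower were 0.0244%, 0.0933%, 0.0333%, 0.00444%, 0.0377% and 1.03% in the same order, so a count of 0 among 7 probe sets is near the background. These shares rest on single arrays: the 464 probe sets called lower in the mean became 118 without the first duodenum control and 1352 without the second brain IRP1 array, and the relatives' count stayed 0 in both. The intervals say more about the signal. The highest upper 95% bound of any relative was 1.71-fold in a single tissue and 1.19-fold in the mean. Both belong to dim probe sets, of Lpar2 in brain and of Lpar4, where the interval does not bound the change in RNA. For Lpar6, the brighter relative, the upper bounds were at most 1.44-fold in a single tissue and 1.07-fold in the mean.

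**Figure D2:**
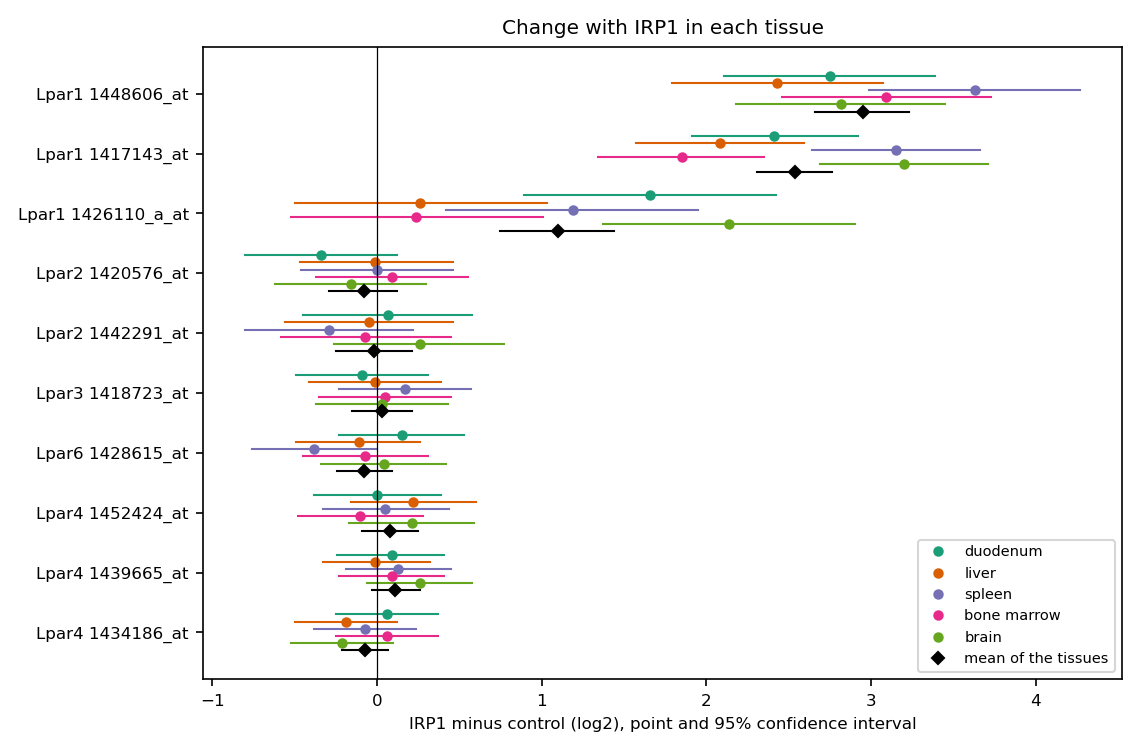
Change with IRP1 (horizontal axis, log2 of IRP1 minus control) of each receptor probe set (vertical axis), with a point and 95% interval per tissue and a black diamond for the mean of the 5 tissues. The relatives lie within -0.38 and 0.26 in single tissues, while 1448606_at of Lpar1 lies between 2.43 and 3.63.

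Lpar6, a P2Y-like receptor that is needed for hair growth, is the relative with a signal well above the dim end of the arrays, between the 57.1 and 89.8 percentiles. Its signals with IRP1 and in the controls were 8.18 and 8.26 against 8.15 and 8.00 in duodenum, 8.54 and 8.78 against 8.80 and 8.75 in liver, and 8.50 and 8.56 against 8.97 and 8.85 in spleen. They were 8.31 and 8.19 against 8.23 and 8.41 in bone marrow, and 6.0 and 6.50 against 6.03 and 6.39 in brain. The groups overlapped in liver, bone marrow and brain, the IRP1 arrays were above the controls in duodenum, and they were below them in spleen. The spleen change of -0.38 (SE 0.18, 95% interval 0.591-fold to 0.998-fold) was the single one of the 35 with an unadjusted p under 0.05 (0.0485), and its adjusted p was 0.52 (limma). The other changes were 0.15 in duodenum, -0.11 in liver, -0.07 in bone marrow and 0.04 in brain, with upper bounds of 1.44-fold, 1.20-fold, 1.24-fold and 1.33-fold. In the mean Lpar6 changed by -0.08 (SE 0.08, 0.844-fold to 1.07-fold, adjusted p = 0.707).

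In the RefSeq annotation of assembly GRCm38.p6, Lpar6 lies inside Rb1, the retinoblastoma tumour suppressor gene. Rb1 was not called either, with a mean change of -0.13 (SE 0.14, limma adjusted p = 0.715) and tissue changes from -0.41 in spleen to 0.39 in bone marrow.

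Lpar2 is the EDG-family receptor known from the intestinal epithelium and from immune cells. By probe set 1420576_at its duodenum signals were 4.35 and 4.68 with IRP1 and 4.82 and 4.90 in the controls, the lower IRP1 values giving a change of -0.34 (SE 0.22, limma adjusted p = 1). The other tissues changed by -0.16 to 0.09. By probe set 1442291_at the brain signals were 4.33 and 4.09 with IRP1 and 3.90 and 4.01 without it, a change of 0.26 (SE 0.24, adjusted p = 0.889), and the other tissues changed by -0.29 to 0.07. Its largest change was the -0.29 in spleen (adjusted p = 0.753), where 1420576_at changed by 0.00. In duodenum, bone marrow and brain the probe sets had opposite signs, and the 95% intervals of all these changes included 0. In the mean of the tissues they changed by -0.08 and -0.02, with upper bounds of 1.09-fold and 1.16-fold.

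Lpar3, the third EDG-family receptor, is known for its part in embryo implantation in the uterus. Its signals ran from 3.51 to 4.70 over the 20 arrays, and its IRP1 and control arrays overlapped in all 5 tissues. The change was 0.17 in spleen, -0.09 in duodenum and between -0.01 and 0.05 in the others (SE 0.19), and 0.03 in the mean (SE 0.08, limma adjusted p = 0.909).

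Lpar4, a P2Y-like receptor known from blood vessel formation, had 3 probe sets, all dim. Their signals ran from 2.83 to 3.51 for 1434186_at, from 3.10 to 3.83 for 1439665_at and from 3.79 to 4.56 for 1452424_at. The lowest values lay at the bottom of their arrays. The mean changes were -0.07, 0.11 and 0.08, with adjusted p of 0.66, 0.449 and 0.702 (limma). The largest tissue change was 0.26 for 1439665_at in brain, from 3.47 and 3.83 with IRP1 and 3.45 and 3.34 without it.

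**Figure D3:**
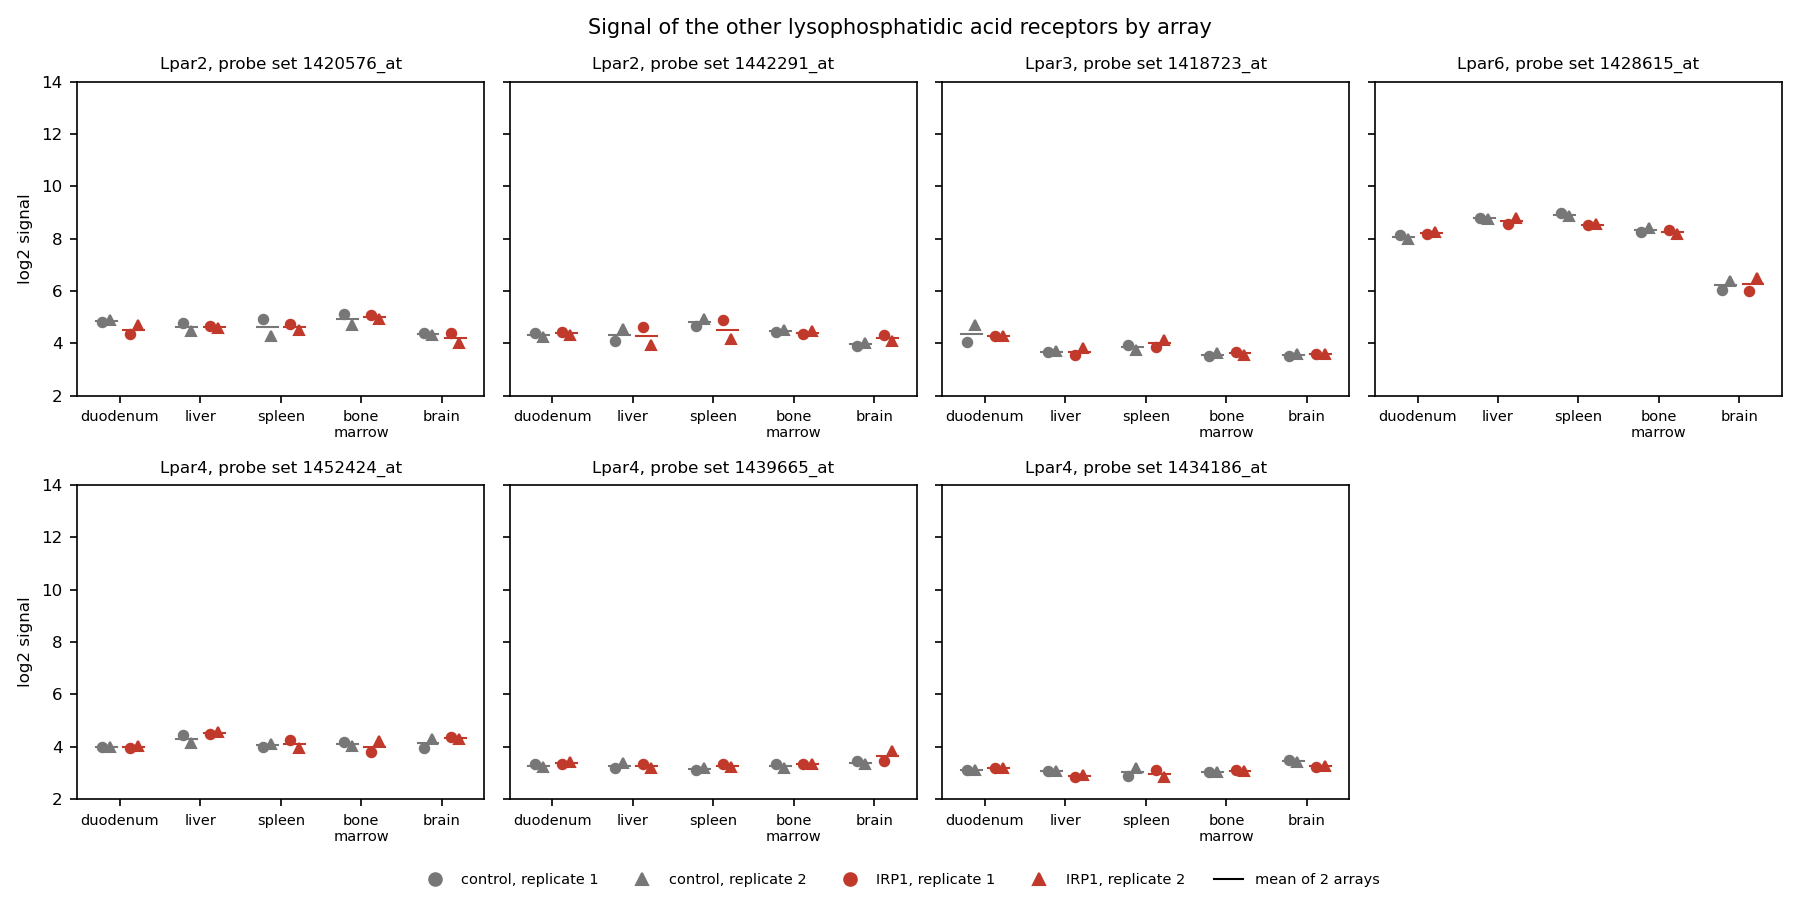
Log2 signal (vertical axis) of the 7 probe sets of Lpar2, Lpar3, Lpar4 and Lpar6 on each array by tissue, on the same scale and with the same colours and symbols as for Lpar1; bars are the mean of 2 arrays. The IRP1 and control arrays lie close together in each panel, and Lpar6 is low in brain in both reactions.

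Taking the relatives by position, both IRP1 arrays lay above both controls in 8 of the 35 cases (22.9%), below both in 4 (11.4%) and overlapped them in 23. Over all probe sets the shares above are those given for Lpar1, and the shares below were 21.6% in duodenum, 26% in liver, 22.1% in spleen, 11.8% in bone marrow and 16.9% in brain. Whether a relative's change differed between tissues was tested as well. None of the 7 passed, with adjusted p from 0.934 to 0.993 in limma's F-test, where 0.0111% of all probe sets passed. In 6 of the 7 relatives' probe sets the signal was in the dim part of the array, no higher than the 42.3 percentile. A change of RNA there can appear smaller on the log2 scale than it is. For Lpar2, Lpar3 and Lpar4 the intervals therefore bound the change in signal and not the change in RNA.

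The control reactions give the levels of the receptors' mRNAs without IRP1. These arrays are one side of the difference on which Lpar1 was selected, but their differences between tissues were not used for that. They hold RNA that came down with the antibody alone, and a tissue with fewer cells that express a receptor cannot be told apart from one with less of its RNA per cell. Lpar1 differed between tissues by 1448606_at (limma F-test, adjusted p = 5.82e-08) and by 1417143_at (adjusted p = 3.12e-10), but not detectably by 1426110_a_at (adjusted p = 0.582). Lpar6 differed (adjusted p = 3.60e-09), and so did Lpar3 (adjusted p = 0.00546). In all, 4 of the 10 probe sets passed, where 63.1% of all probe sets did.

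The Lpar1 level was high in brain, duodenum and spleen and low in liver and bone marrow. The duodenum and spleen controls also carried acinar markers of the pancreas, at 13.88 and 10.17 against 6.38 to 7.48 in the other tissues. What pancreas RNA added to the Lpar1 levels there was not tested. By 1448606_at the control means were 9.63 ± 0.04 in brain (SD, n = 2), 9.47 ± 0.36 in duodenum, 8.52 ± 0.36 in spleen, 6.86 ± 0.16 in liver and 6.40 ± 0.03 in bone marrow. By 1417143_at they were 9.41 ± 0.14 in duodenum, 8.69 ± 0.01 in brain, 7.65 ± 0.20 in spleen, 5.99 ± 0.30 in liver and 5.28 ± 0.09 in bone marrow. The step from spleen to liver was -1.66 log2 for liver minus spleen by both probe sets (adjusted p = 0.000303 and 3.03e-05, limma), and it passed under each alternative that could be fitted. Between these pairs of tissues calls were common: 38.4% of all probe sets passed for liver and spleen, 32.3% for duodenum and spleen, 39.6% for duodenum and brain, 38.2% for spleen and brain, 32.5% for liver and bone marrow, and 29.6% for duodenum and bone marrow.

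The other neighbours in this order were closer. By 1448606_at duodenum and brain did not differ detectably (-0.16, SE 0.30, adjusted p = 0.727), nor did liver and bone marrow (0.46, adjusted p = 0.288). Duodenum exceeded spleen by 0.96 (adjusted p = 0.0212), a call lost without the second duodenum control (adjusted p = 0.195) or the second spleen control (adjusted p = 0.203), without both arrays with low hybridization controls (0.188) and with the floor at log2 6 (0.0787). By 1417143_at duodenum exceeded brain by 0.71 (adjusted p = 0.0251) and liver exceeded bone marrow by 0.71 (adjusted p = 0.0305). The former call was lost without either duodenum control (0.0511 and 0.143 for the first and second) or either brain control (0.0792 and 0.0873), with the floor (0.0525), and when each array's standard deviation entered the fit (0.0785). The latter was lost without the second liver control (0.25) or either bone marrow control (0.13 and 0.0685), with the floor (1) and with array weights (0.0604). Spleen minus brain was -1.04 by this probe set (adjusted p = 0.00196). The order of brain and duodenum thus depends on the probe set.

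Markers of 2 cell types in which Lpar1 is known were measured in the same controls. The 6 fibroblast and stroma markers averaged 9.70 in the duodenum controls (9.61 and 9.80 on its arrays), 8.79 in spleen, 8.56 in liver, 7.27 in brain and 6.61 in bone marrow (6.44 and 6.78). The 5 oligodendrocyte markers measured averaged 9.34 in the brain controls (9.03 and 9.64) and between 6.28 and 7.23 in the others. By their means, the stroma markers had the same order as the Lpar1 level over duodenum, spleen, liver and bone marrow. Between spleen (8.78 and 8.80 on its arrays) and liver (8.31 and 8.80) the arrays overlapped, so that step is not resolved. In brain, where Lpar1 was high, the stroma markers were lower than in liver. The oligodendrocyte markers were high in brain alone, so neither list had the Lpar1 order over all 5 tissues. The part of either in the Lpar1 levels was not tested. With IRP1, against the controls, 0 of these 11 markers were called in any tissue or the mean. Over all genes 0.066% to 0.148% were called higher and 0.011% to 0.0824% lower in single tissues. In the mean these shares were 0.912% and 1.19%, so a count of 0 among 11 is near the background. The stroma list averaged 9.73 with IRP1 against 9.70 in duodenum and 8.55 against 8.79 in spleen, and the oligodendrocyte list 9.03 against 9.34 in brain.

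**Figure D4:**
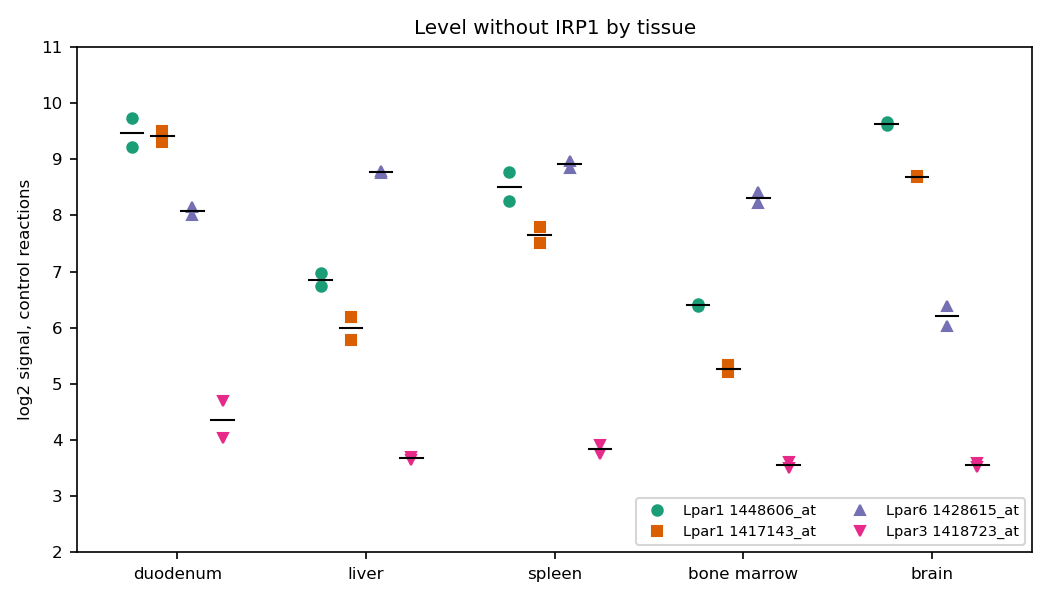
Log2 signal in the control reactions (vertical axis) by tissue (horizontal axis) for the 4 receptor probe sets whose level differed between tissues, with a point per array and a bar for the mean of 2. Lpar1 is high in brain, duodenum and spleen, Lpar6 is lowest in brain, and Lpar3 is highest in duodenum; heights of different probe sets are not comparable.

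Lpar6 had another order. Its control means were 8.91 ± 0.09 in spleen (SD, n = 2), 8.77 ± 0.04 in liver, 8.32 ± 0.12 in bone marrow, 8.07 ± 0.11 in duodenum and 6.21 ± 0.25 in brain. Brain stood apart, with duodenum above it by 1.86 log2 (SE 0.18, limma adjusted p = 1.62e-07). Spleen and liver did not differ detectably (-0.14 for liver minus spleen, adjusted p = 0.569), nor did bone marrow and duodenum (-0.25 for duodenum minus bone marrow, adjusted p = 0.358). Liver minus bone marrow was 0.45 (adjusted p = 0.063), which passed without either brain IRP1 array (adjusted p = 0.0392 for each), with quantile normalization (0.0214), and when each array's standard deviation entered the fit (0.0363). In brain, where the Lpar1 level was high, the Lpar6 level was thus the lowest of the 5 tissues, each judged against the same probe set elsewhere.

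Lpar3 was higher in the duodenum controls, at 4.37 ± 0.47, than in the other tissues, at 3.55 to 3.83. The duodenum arrays themselves read 4.03 and 4.70, and without the second of them the adjusted p was 0.13. The level of Lpar2 did not differ detectably between tissues (adjusted p = 0.16 and 0.062, limma), nor did that of Lpar4 (0.0641, 0.655 and 0.567). These results are not firm for 2 of the probe sets. For Lpar2 probe set 1442291_at the test passed with quantile normalization (adjusted p = 0.0296), median centring (0.0495), array weights (0.0316), the array standard deviation as a term (0.0119) and an intensity trend (0.0326). It also passed without either spleen IRP1 array (adjusted p = 0.0287), either liver IRP1 array (0.0356) or the second liver control (0.0496). For Lpar4 probe set 1434186_at it passed with quantile normalization (0.0368), with an intensity trend (0.00558), without the 2 arrays with low hybridization controls (0.0291) and without the second spleen control alone (0.0338).

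The genes around the receptors were described from lists, with each gene represented by its brightest probe set. The lists held enzymes of lysophosphatidic acid, G protein subunits, sphingosine 1-phosphate receptors, P2Y-family relatives and Rb1. All are counted below as pathway genes, although the receptor families and Rb1 are not part of the pathway. Of 48 listed genes 47 were measured, and 0 were called in any tissue or in the mean (limma, adjusted p under 0.05), where 0.912% of 18193 genes were called higher and 1.19% lower in the mean. Enpp2 (autotaxin, the secreted enzyme that makes most extracellular lysophosphatidic acid) was not analysed here. At an unadjusted p under 0.05, 1 gene was higher (2.13%) and 8 were lower (17%) in the mean, where 6.39% of all genes were higher and 11.9% lower by the same rule. The median change of the 47 genes was -0.06 log2 against -0.01 over all genes, with a range of -0.28 to 0.33. Their median was 0.01 in duodenum, -0.18 in liver, -0.14 in spleen, 0.09 in bone marrow and -0.09 in brain, where all genes had -0.02, -0.05, -0.03, 0.07 and -0.03.

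The list of phospholipases and related enzymes for lysophosphatidic acid synthesis had 6 measured genes. Their mean changes were largest for Pla2g2a, a secreted phospholipase (0.33), and Lipg, endothelial lipase (0.22). The lowest adjusted p of this list was 0.164 (limma). Among 13 genes of the lipid's removal and acylation, Plpp1 (-0.28) and Plpp3 (-0.22), phosphatases that degrade it at the cell surface, changed most. Among 4 genes of its synthesis inside cells, these were Gpam, the mitochondrial glycerol phosphate acyltransferase (-0.27), and Agk, acylglycerol kinase (0.09). None of these 23 genes passed.

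The G protein genes were similar. Among 8 G protein alpha subunits, Gnaq (-0.27) and Gnai3 (-0.23) changed most, with a lowest adjusted p of 0.265 for the list (limma).

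The closest receptor families were not called either. The 5 sphingosine 1-phosphate receptors changed by -0.09 (S1pr2) to 0.07 in the mean, with a lowest adjusted p of 0.736 (limma), and 0 of 5 had an unadjusted p under 0.05 there. The 10 measured P2Y-family relatives changed by -0.26 (P2ry6, a uridine nucleotide receptor) to 0.25 (P2ry14, a receptor for nucleotide sugars), with a lowest adjusted p of 0.285. At an unadjusted p under 0.05, 2 of these 10 were lower and 0 higher in the mean. By the same rule 18.2% of all genes passed in the mean, so little can be read from counts among so few genes. Of the 20 receptors measured in these families and among the members, all but Lpar1 thus lay within -0.26 and 0.25 in the mean.

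**Figure D5:**
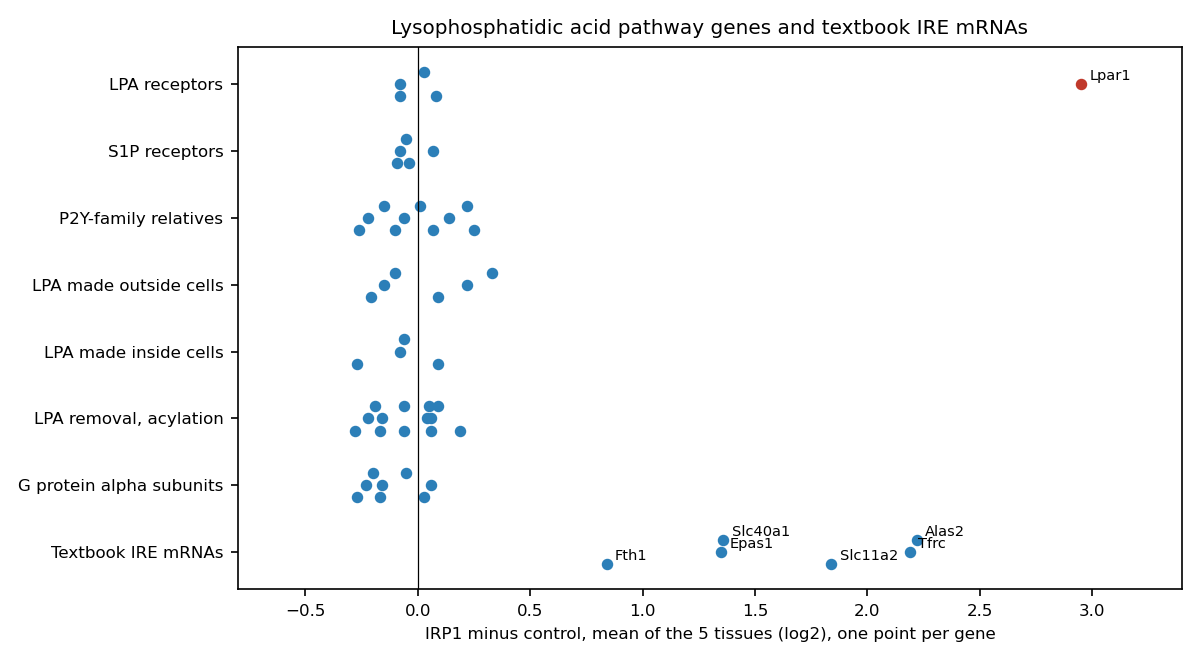
Mean change with IRP1 over the 5 tissues (horizontal axis, log2) with a point per gene and a row per list; Lpar1 is in red, and the IRE row holds the 6 textbook mRNAs. The row labelled as made outside cells holds the measured phospholipases and related enzymes, wherever they act. All listed genes other than Lpar1 and the IRE mRNAs lie between -0.28 and 0.33, and the IRE mRNAs between 0.84 and 2.22.

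Single genes of these lists came near a call, or passed under an alternative or by another probe set. Plppr4, a brain protein related to the lipid phosphatases, changed by -1.12 in brain (SE 0.22, limma adjusted p = 0.0656), from a control mean of 8.42 to 7.30 with IRP1. It passed without the second brain IRP1 array (-1.35, adjusted p = 0.0356) or the second brain control (-1.50, adjusted p = 0.00498). Gpr174, a lymphocyte receptor for lysophosphatidylserine, changed by -0.81 in spleen (adjusted p = 0.28), which is not near a call. It passed there with the floor at log2 6 (limma adjusted p = 0.0454). By other probe sets than their brightest, Plpp3 was lower in the mean by 1448908_at (-0.62, adjusted p = 0.0335) and Agpat3, an acyltransferase, by 1450504_a_at (-0.49, adjusted p = 0.00619). These probe sets were picked as the ones with the largest change, so their p-values are too small.

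The genes most like Lpar1 were sought with probe set 1448606_at and are given without a test. In level, over the 10 group means and among 11047 probe sets whose means spanned at least 2 log2 units, the highest Pearson correlations were those of Atp6v1c1, a subunit of the vacuolar proton pump (0.908), Rnf121 (0.899), Arfip2 (0.852), Rapgef2 (0.841) and Mapkbp1 (0.826). These 5 also had higher signals with IRP1 on average, by 0.57 to 1.33 log2. The group means share tissues and reactions, so both enter the correlation.

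In the size of the change over the 5 tissues, the nearest genes were Cep95 (Euclidean distance 1.11 log2 units), Cxcl16, a transmembrane chemokine (1.16), Tfrc, the transferrin receptor whose mRNA carries several IREs (1.16), Egr2, a transcription factor of myelinating Schwann cells (1.17) and Lrpap1, a chaperone of lipoprotein receptors (1.37). Lpar1 changed by 2.75, 2.43, 3.63, 3.09 and 2.82 in duodenum, liver, spleen, bone marrow and brain. Tfrc, by probe set 1422966_a_at, changed by 2.18, 2.39, 3.01, 3.88 and 2.92 in the same order. The tissue with the largest value depends on the probe set for both genes. By 1417143_at the Lpar1 change was largest in brain (3.20, against 3.15 in spleen). By its brightest probe set, 1452661_at, Tfrc changed most in brain (3.03) and by 1.86 in bone marrow.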

How the data were processed

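RNA recovered with IRP1 and in controls was measured on Affymetrix Mouse430_2 arrays after a two-cycle amplification, per the labels' protocols. The values analysed are the deposited log2 signal of each probe set. Per the series design text, the authors computed intensities either with RMA or with MAS5 in GCOS followed by quantile normalization; which of them made this table is not stated. Gene symbols come from the platform annotation, and 64 control probe sets were left out.

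No filter, pseudocount or further normalization was applied to the deposited log2 values. One model with 10 groups of 2 was fitted to 20 arrays with limma 3.58.1 (lmFit, eBayes; 10 residual and 6.14 prior degrees of freedom) in R 4.3.3. P-values are two-sided. Each contrast was adjusted for its 45037 probe sets with the Benjamini-Hochberg procedure, and an adjusted value under 0.05 is a call. Plots used Python 3.11.15 with matplotlib 3.10.9. Tested on simulated data of this size, single-tissue changes of 2, 1 and 0.5 log2 were found in 95.8% to 98.6%, 57.5% to 68.5% and 1.79% to 5.36% of cases, and 100%, 100% and 75% in the mean.

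Members and lists were chosen with earlier results of these data known. One planned gene list and 1 gene of another are not reported here. Named genes are all receptor probe sets, up to 2 genes per list with the largest mean change (Plppr4, Gpr174, Plpp3 and Agpat3 were named after their values were seen, since an alternative called them), and the 5 most like Lpar1 in level and in change. Same-numbered reactions of a tissue deviated together with correlations of 0.272 in duodenum, -0.0742 in liver, 0.533 in spleen, -0.0389 in bone marrow and 0.119 in brain. These values are mixed, and a pairing in spleen is not excluded by them. The main fit did not take the numbers as pairs, and a fit with a replicate block was run beside it. Alternatives covered normalization, a floor and a filter on dim values, array weights, the array standard deviation, arrays with low hybridization controls, an intensity trend, single-tissue fits, a replicate block and each array left out.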

Additional observations from a re-analysis of the deposited data

How the results depend on the processing

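The count of relatives' probe sets called stayed 0 in each tissue and in the mean under every alternative and with each single array left out, and no Lpar1 change and no called result turned its sign. Some of these 0 counts carry no information on enrichment. Fitting only the 4 arrays of spleen or of brain called 0 of all probe sets higher. The floor at log2 6 lies above every value of Lpar2, Lpar3 and Lpar4, so their changes became 0. The Lpar1 change by 1448606_at became 2.81 in liver, 3.97 in spleen and 3.34 in brain with quantile normalization. It was 3.12 in spleen without the 2 arrays with low hybridization controls. With single arrays left out it ran from 2.11 to 2.75 in liver and from 2.32 to 3.32 in brain. The mean change of 1426110_a_at became 0.38 with the floor at log2 6. The count of pathway genes called became 1 in brain with quantile normalization, with the floor and with an intensity trend (Plppr4), 1 in spleen with the floor (Gpr174), and 2 in the mean with each gene's probe set of largest change. It ran from 0 to 1 in brain and stayed 0 elsewhere with single arrays left out. With the replicate block, relatives called stayed 0, pathway genes called 0, and the Lpar1 mean change by 1448606_at 2.95; all probe sets called in the mean were 402 higher and 551 lower against 348 and 464 without it. Over the other alternatives the higher count ran from 225 to 607 and the lower from 123 to 667. With single arrays left out they ran from 203 (without the first duodenum IRP1 array) to 477 (without the first spleen IRP1 array) and from 118 to 1352. In single tissues the widest such ranges were 6 to 210 higher in spleen (31 with all arrays), 0 to 180 lower in bone marrow (2) and 10 to 118 lower in brain (17), the highest values being those without the first spleen IRP1 array, the second bone marrow control and the second brain IRP1 array. The cause of these shifts was not tested. Level tests that changed sides beyond those given with the levels were the difference of Lpar2 probe set 1420576_at once each array's standard deviation was a term of the fit (adjusted p = 0.0469) and that of Lpar3, which was lost with the floor (adjusted p = 1), where all its values lie. Fits of a single tissue gave no levels between tissues, and the filter on dim probe sets left out the dim members. Signal over background limits the relatives' values, since the probe sets of Lpar2, Lpar3 and Lpar4 and 1426110_a_at are dim.

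Changes near 0 that were not called did take either sign. With quantile normalization these were 0.13 for Lpar6 in liver, -0.01 for Lpar4 probe set 1452424_at in spleen, and 0.17 for the Lpar6 control level of liver minus spleen. With each array's standard deviation in the fit they were 0.02 for Lpar3 in liver and 0.10 for Lpar2 probe set 1442291_at in bone marrow. Without the arrays with low hybridization controls they were 0.21 for 1442291_at, -0.05 for Lpar3 and 0.23 for Lpar4 probe set 1434186_at in spleen, and 0.08 for 1442291_at and -0.01 for Lpar3 in the mean. With single arrays left out, Lpar2 probe set 1442291_at ran from -0.02 to 0.15 in duodenum, from -0.40 to 0.30 in liver, from -0.65 to 0.07 in spleen and from -0.09 to 0.06 in the mean. Lpar2 probe set 1420576_at ran from -0.15 to 0.14 in liver, from -0.13 to 0.31 in bone marrow and from -0.36 to 0.04 in brain. Lpar3 ran from -0.43 to 0.24 in duodenum, from -0.14 to 0.12 in liver, from -0.01 to 0.11 in bone marrow, from -0.01 to 0.07 in brain and from -0.04 to 0.10 in the mean. Lpar4 ran from -0.09 to 0.07 in liver by 1439665_at, from -0.23 to 0.10 in spleen by 1434186_at, and from -0.09 to 0.20 in spleen and from -0.31 to 0.11 in bone marrow by 1452424_at. Lpar6 ran from -0.16 to 0.02 in bone marrow and from -0.21 to 0.29 in brain. The Lpar1 control level of duodenum minus brain by 1448606_at ran from -0.41 to 0.09.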
